A study of Mus musculus with 2 samples.

Results

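The genes described here are 7 receptors for colony-stimulating factors, related cytokines and Flt3 ligand, together with the ligand Csf1. They were taken by symbol from the list of measured genes, and all 8 (Csf1r, Csf2ra, Csf2rb, Csf2rb2, Csf3r, Flt3, Il5ra and Csf1) were found among the 31053 features of both libraries. Cells of the mouse colon lamina propria, described in the labels as cd11b+, were profiled by droplet-based 3' single-cell RNA sequencing, in which each captured transcript carries a unique molecular identifier (UMI). The WT library was made from wild-type animals, and the KO library from animals in which the long non-coding RNA LncRNA17Rik of the labels, lncLy6c in the study's terms, was knocked out. The animals were 8-week-old males, and cells of pooled mice (n = 6) went into the libraries, so the spread between mice cannot be seen. With 1 library per genotype, no comparison has a replicate check, no test was run between the genotypes, and a difference between genotypes and one between libraries cannot be told apart.

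Colony-stimulating factors are secreted proteins that keep myeloid cells alive and drive their maturation. Csf1r, the receptor tyrosine kinase for CSF1 and IL-34, is needed by most tissue macrophages. The granulocyte-macrophage factor binds the specific chain Csf2ra, which signals with the common beta chain Csf2rb, and that beta chain also serves the receptors for IL-3 and IL-5 (Il5ra). Csf2rb2 is a mouse beta chain used by IL-3, Csf3r is the granulocyte factor receptor of neutrophils, and Flt3 is the receptor tyrosine kinase on which dendritic cell development depends. In the intestine, macrophages are replenished from blood monocytes, and conventional dendritic cells of types 1 and 2 (cDC1 and cDC2) come from Flt3-dependent precursors.

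In the GENCODE M21 annotation of GRCm38, whose gene identifiers matched those of the files for all 8 genes, the members lie on 7 chromosomes. Csf3r (ENSMUSG00000028859) is at chr4:126024550-126044440 on the plus strand and Flt3 (ENSMUSG00000042817) at chr5:147330741-147400489 on the minus strand. Csf2ra (ENSMUSG00000059326) is at chr19:61223957-61228429, Il5ra (ENSMUSG00000005364) at chr6:106710357-106749037 and Csf1 (ENSMUSG00000014599) at chr3:107741048-107760469, all on the minus strand. The beta chain genes are neighbours: Csf2rb2 (ENSMUSG00000071714) is at chr15:78282507-78305721 on the minus strand and Csf2rb (ENSMUSG00000071713) at chr15:78325752-78353847 on the plus strand, 20.03 kb apart and pointing away from each other. The beta chain genes are also near copies. Of the 100-base windows of their longest transcripts, 6.96% of those of Csf2rb and 7.20% of those of Csf2rb2 also occur in the other transcript, while in the last 1000 bases, where 3' reads mostly fall, 0 of 901 windows were shared.

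Upstream sequence is shown for 3 of the 6 members with a RefSeq promoter entry (GRCm38.p6, none for Csf1r and Csf2rb). These receptors were chosen for levels that differed by cell class or by library, without a ranking of the members. Each runs 5' to 3' on the strand of the gene and ends at the base before its first exon in GENCODE M21. The windows are chr15:78305722-78305971 (minus strand) for Csf2rb2, chr4:126024409-126024549 (plus strand) for Csf3r, where that exon begins ahead of the RefSeq start and leaves 141 bases, and chr5:147400490-147400739 (minus strand) for Flt3. Capitals mark the core motif of PU.1, a myeloid transcription factor, searched as GAGGAA or its reverse complement TTCCTC.
Csf2rb2: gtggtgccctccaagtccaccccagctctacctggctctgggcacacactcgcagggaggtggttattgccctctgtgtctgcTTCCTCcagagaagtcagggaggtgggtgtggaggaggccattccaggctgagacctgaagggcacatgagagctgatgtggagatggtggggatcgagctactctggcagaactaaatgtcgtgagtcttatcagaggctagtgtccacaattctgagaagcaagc
Csf3r: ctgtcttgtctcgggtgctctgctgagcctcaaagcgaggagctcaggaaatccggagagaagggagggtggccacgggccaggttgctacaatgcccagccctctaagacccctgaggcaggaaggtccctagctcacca
Flt3: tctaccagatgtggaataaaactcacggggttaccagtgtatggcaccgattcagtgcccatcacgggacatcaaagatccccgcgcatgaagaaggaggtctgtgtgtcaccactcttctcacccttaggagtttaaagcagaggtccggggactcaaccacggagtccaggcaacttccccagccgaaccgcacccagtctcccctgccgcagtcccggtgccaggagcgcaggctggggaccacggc
The single match lay in the Csf2rb2 window, on the opposite strand, beginning 167 bases before the exon. The RUNX core motif, searched as TGTGGT or ACCACA, had no match in these 3 windows. Over 32851 promoter windows of 250 bases, 23.3% held the PU.1 letters and 14.0% the RUNX letters, so a match or its absence is a description of the letters only.

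After filtering, 2597 WT cells with a median of 5073 UMIs and 2514 KO cells with a median of 6564.5 UMIs remained, and no barcode was shared. Cells were grouped into 20 clusters without using the 8 genes, and 16 clusters took 1 of 13 class names from marker genes that exclude them. The 4 other clusters are called by their leading genes. Levels are given as CPM, the UMIs of a gene per 1000000 UMIs of a class in 1 library, with exact Poisson 95% intervals, which cover counting error only. Itgam, which encodes CD11b, was highest in eosinophil-like (684 CPM in WT and 752 in KO) and neutrophil-like cells (325 and 316 CPM), but B cell-like, plasma cell-like, T cell-like and epithelial-like cells were present too, so the libraries were not purely CD11b+ cells. T cell-like cells had 33.9 and 22.8 CPM of Itgam. The deleted gene could not be checked, because the labels give no full symbol and 109 features end in 17Rik.

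Csf1r (ENSMUSG00000024621, chr18:61100598-61132149 on the plus strand) marked the macrophages and monocytes. In resident macrophage-like cells its level was 688 (652 to 725) in 417 WT cells and 858 (803 to 916) in 139 KO cells, and the inflammatory monocyte-like cells had 518 (492 to 546) in 431 WT cells and 584 (557 to 613) in 326 KO cells. These were the highest and next highest of the classes with at least 20 cells in both libraries, and their intervals did not overlap. The next named classes were lower, with 166 (121 to 223) in WT and 129 (98.4 to 166) in KO eosinophil-like cells, 110 (97.3 to 124) and 73.2 (66.3 to 80.6) in cDC2-like cells, and 107 (68.5 to 159) and 217 (188 to 249) in neutrophil-like cells. In WT, eosinophil-like, cDC2-like and neutrophil-like cells were not separated from each other.

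A cluster led by Retnla, Mgl2 and Ccl24, left without a class name because its leading genes held as many markers of another class as of cDC2 cells, also carried Csf1r, at 355 (277 to 448) in 23 WT cells and 297 (279 to 316) in 266 KO cells. The cells that supplied the Csf1r transcripts in these files, which hold fewer cells than the study states, differed between libraries. In WT, resident macrophage-like cells (16.1% of the cells) gave 40.3% of all Csf1r UMIs and inflammatory monocyte-like cells (16.6%) gave 41.3%. The Retnla cluster, with 0.886% of the WT cells, gave 2.03%. In KO these shares were 19.4% and 36.03%, and the Retnla cluster, with 10.6% of the cells, gave 22.5%.

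Thinned to 500 UMIs per cell, a depth every cell reached, 18.9% of WT and 33.8% of KO resident macrophage-like cells had a Csf1r UMI. Unthinned, the shares were 61.6% and 84.9% at median depths of 2967 and 6453 UMIs. T cell-like cells, which should lack the receptor, had a Csf1r UMI in 1.78% of WT and 4.76% of KO cells at median depths of 5383 and 5844 UMIs, or 0% and 1.59% after thinning. The shares in macrophages and monocytes were thus well above those in T cell-like cells, with or without thinning.

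Csf1, the ligand of Csf1r, had its highest level in stromal-like cells, at 202 (162 to 249) in 80 WT and 301 (232 to 385) in 21 KO cells. Neutrophil-like cells followed with 174 (124 to 237) and 197 (169 to 228), and eosinophil-like cells with 136 (95.2 to 188) and 135 (104 to 173). In WT neighbours among these 3 classes were not separated, and in KO only stromal-like cells stood apart from the next class. Under other settings stromal-like cells came first in KO in 5 of 8. Neutrophil-like cells came first there with each library clustered alone (188), with the stricter cell filter (228) and with the top doublet scores removed (219). Only classes with at least 20 cells were ranked, and stromal-like cells had 21 in KO. Their number and level under those settings are not given, so a reversed order cannot be read from this. All other named classes with at least 20 cells were at or below 10.5. The second ligand of the receptor, Il34, had 22 of its 34 WT UMIs and 2 of its 3 KO UMIs in stromal-like cells (50.5 and 9.41 CPM).

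**Figure D1:**
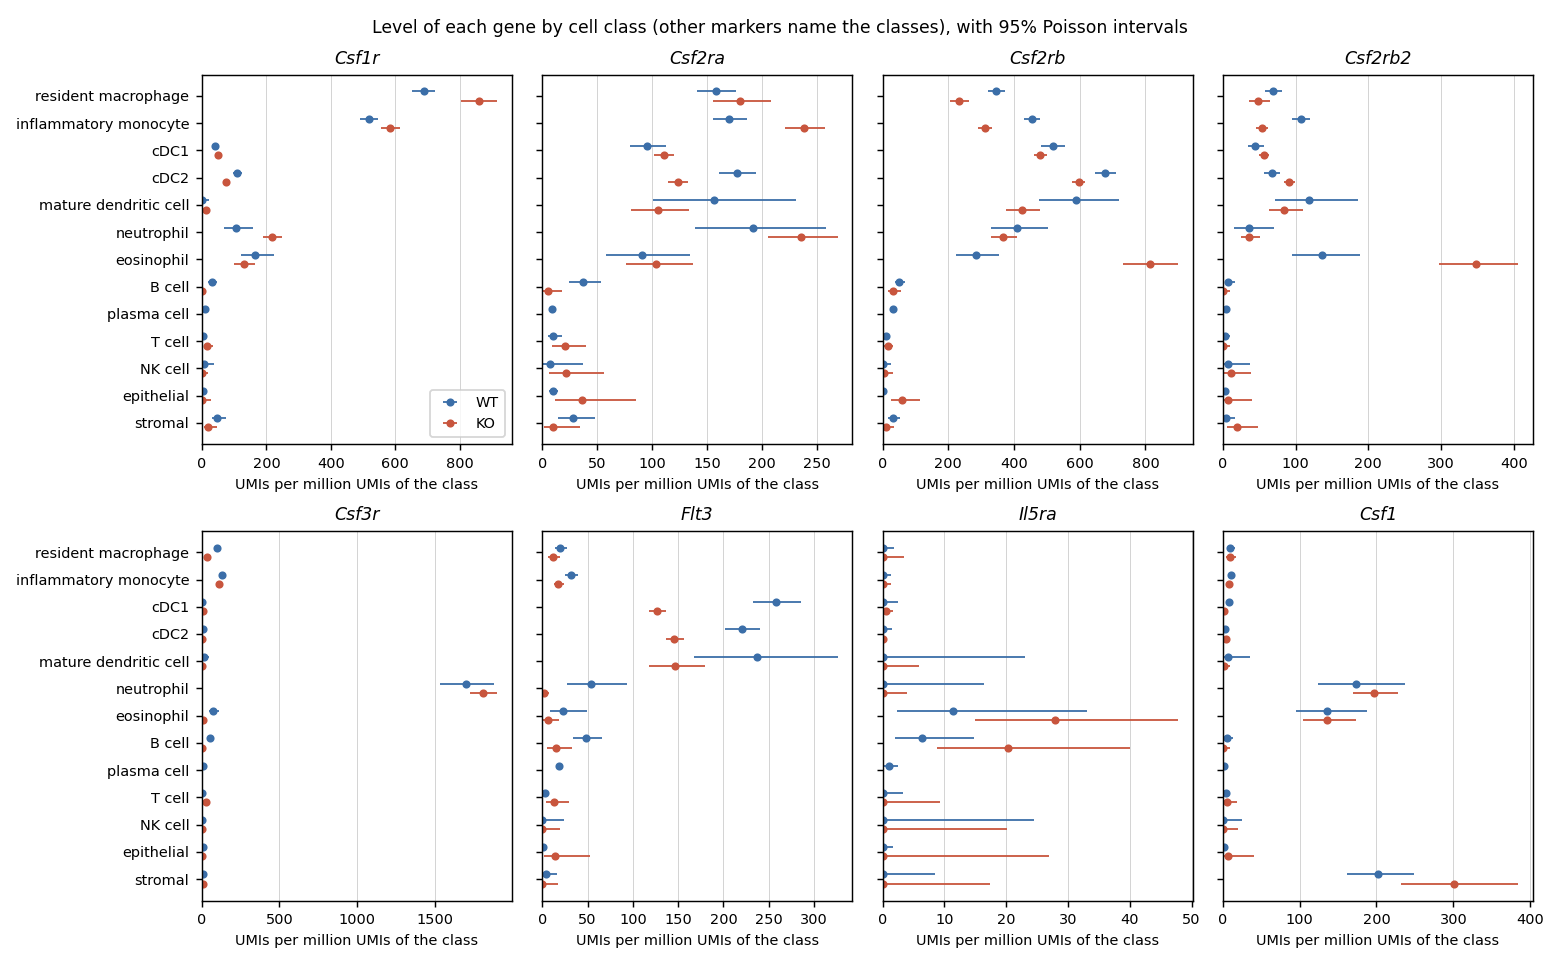
Level of each gene, in CPM (horizontal axis), in the named cell classes of the WT (blue) and KO (red) library, with exact Poisson 95% intervals (classes with under 15 cells in a library are left out). Csf3r stands out in neutrophil-like cells at 1702 and 1816, Flt3 lies in dendritic cell classes, and Csf2rb in eosinophil-like cells differs between libraries, at 283 and 812.

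The chains of the receptor for granulocyte-macrophage factor spread over the myeloid classes. Csf2ra was at 192 (139 to 258) in WT neutrophil-like, 177 (161 to 195) in cDC2-like, 170 (155 to 186) in inflammatory monocyte-like and 158 (141 to 176) in resident macrophage-like cells, and neighbours in this order were not separated. In KO the order began with inflammatory monocyte-like cells at 238 (221 to 257) and neutrophil-like cells at 235 (205 to 269), again not separated, followed by resident macrophage-like cells at 180 (155 to 208). B cell-like cells had 37.0 and 5.08, and T cell-like cells 9.81 and 20.3.

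Csf2rb, the signalling beta chain, was highest in dendritic cells of the WT library. Its level was 678 (645 to 711) in cDC2-like cells and 517 (481 to 556) in cDC1-like cells, and these were separated from each other and from the inflammatory monocyte-like cells at 454 (429 to 480). Neutrophil-like, resident macrophage-like and eosinophil-like cells had 410 (330 to 503), 346 (321 to 372) and 283 (223 to 355). In the KO library the order opened with eosinophil-like cells at 812 (733 to 899), ahead of cDC2-like cells at 597 (577 to 617) and cDC1-like cells at 480 (462 to 500). Mature dendritic cell-like cells, with 19 WT and 41 KO cells, had 587 (475 to 719) and 424 (375 to 478).

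Csf2rb2, the second beta chain, was highest in eosinophil-like cells of both libraries, at 136 (95.2 to 188) in WT and 348 (297 to 406) in KO. In WT this was not separated from the inflammatory monocyte-like cells at 107 (94.9 to 120), while in KO the next class, cDC2-like cells, had 91.1 (83.4 to 99.4). With each library clustered alone, the highest WT class was the inflammatory monocyte-like one, at 100.1. With each cell classed by its highest marker score, mast cell-like cells, a class that the clusters did not give, came first for Csf2rb2 in both libraries, at 267 in WT and 319.6 in KO, and for Csf2rb in KO, at 746. At 2000 UMIs per cell both beta chains were found together in 0 of 23 WT and 15 of 27 KO eosinophil-like cells, which is 55.6% in KO, but few cells of this class reached that depth.

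Il5ra, the specific chain of the IL-5 receptor of eosinophils, was barely detected. Only 12 WT and 24 KO UMIs were counted in all cells. Of these, 3 WT and 13 KO UMIs lay in eosinophil-like cells (11.3 and 27.9 CPM) and 5 and 8 in B cell-like cells (6.37 and 20.3), with 4 in WT plasma cell-like and 3 in KO cDC1-like cells. No order of classes can be read from these counts.

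Csf3r was concentrated in neutrophil-like cells. Its level there was 1702 (1535 to 1881) in 84 WT cells and 1816 (1730 to 1904) in 271 KO cells. Inflammatory monocyte-like cells came next with 131 (118 to 145) and 109 (97.1 to 122), then resident macrophage-like cells with 98.2 (84.99 to 112.8) and 34.5 (24.2 to 47.7). Thinned to 500 UMIs, 58.3% of neutrophil-like cells of either library had a Csf3r UMI. In T cell-like cells the thinned share was 0% in WT and 1.59% in KO.

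Flt3 was a gene of the dendritic cell classes. In WT it was at 258 (232 to 286) in 128 cDC1-like cells, 238 (168 to 326) in 19 mature dendritic cell-like cells and 220 (202 to 240) in 232 cDC2-like cells. In KO the levels were 127 (117 to 137) in 300 cDC1-like, 146 (118 to 179) in 41 mature dendritic cell-like and 146 (136 to 156) in 376 cDC2-like cells. Within each library neighbours among these classes were not separated. The next classes in WT were neutrophil-like cells with 53.5 (27.6 to 93.4) from 12 UMIs and B cell-like cells with 48.4 (34.3 to 66.5), whereas KO neutrophil-like cells had 2 Flt3 UMIs.

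**Figure D2:**
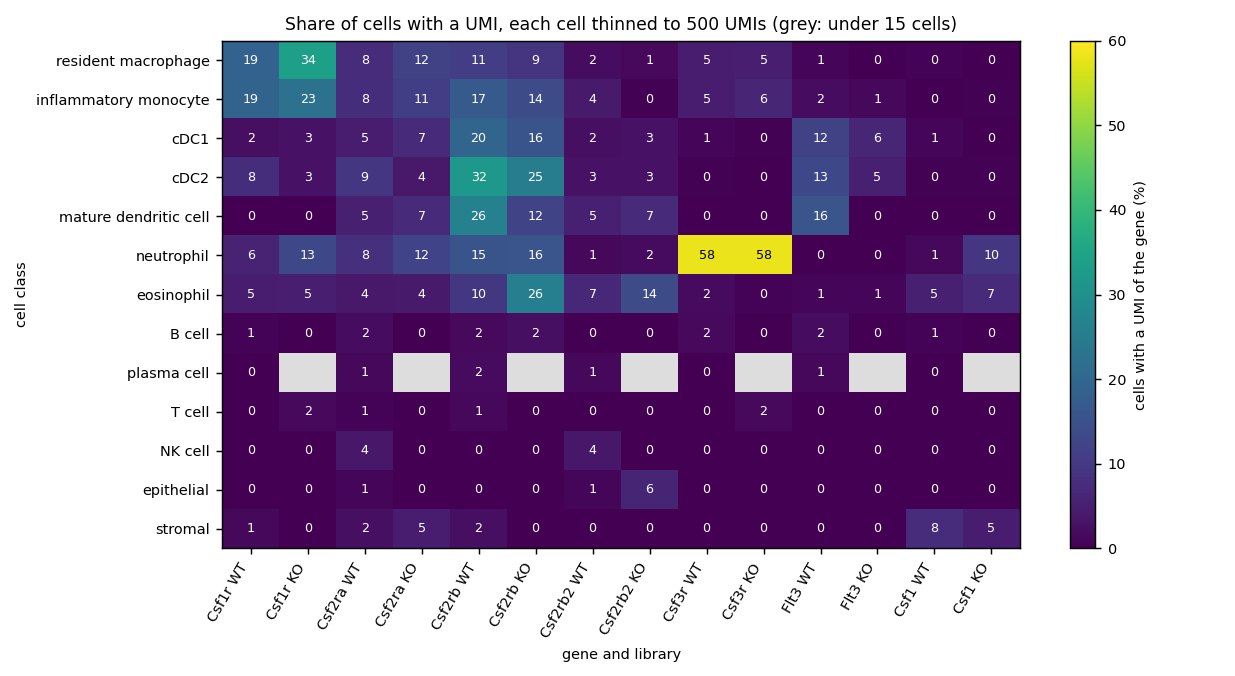
Share of cells with at least 1 UMI (percent, color and printed number) of each gene in each named class (rows) and library (columns), after each cell was thinned to 500 UMIs. Csf3r reached 58.3% of neutrophil-like cells in both libraries, and the Csf2rb share of eosinophil-like cells was 9.82% in WT and 25.9% in KO.

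Set against each other, Csf1r and Flt3 separated macrophages from dendritic cells, a split that neither gene helped to define. Both are counted from the 3' end of each molecule, so the share below is not scaled by transcript length. Of the UMIs of both genes, Csf1r took 97.2% (96.2 to 98.0%, exact Clopper-Pearson 95% interval) in WT and 98.7% (97.7 to 99.3%) in KO resident macrophage-like cells. Inflammatory monocyte-like cells were close to these, with 94.2% and 97.0%, and the Retnla cluster had 95.9% and 90.4%.

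In cDC2-like cells Csf1r took 33.3% (30.05 to 36.66%) of the WT and 33.4% (30.78 to 36.13%) of the KO UMIs. In cDC1-like cells Csf1r took 13.2% (10.1 to 16.8%) of WT and 28.6% (25.6 to 31.6%) of KO UMIs, intervals that did not overlap, but the Csf1r ratio of that class turned in sign under other ways of classing the cells. Mature dendritic cell-like cells had 0 Csf1r UMIs in WT and 8 in KO. Cells with both transcripts were few: at 2000 UMIs per cell, 1.78% of WT and 2.72% of KO cDC2-like cells and 1.20% and 2.70% of resident macrophage-like cells held a UMI of each.

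**Figure D3:**
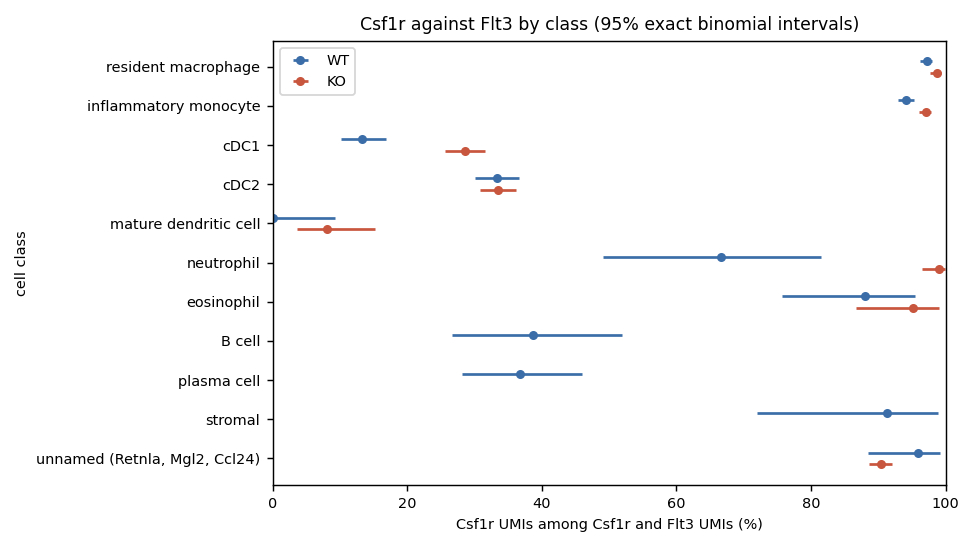
Csf1r UMIs as a percent of Csf1r and Flt3 UMIs (horizontal axis) in each named class and in the Retnla cluster, for WT (blue) and KO (red), with exact Clopper-Pearson 95% intervals. Macrophage and monocyte classes lie above 94%, cDC2-like cells at 33.3% and 33.4%, and cDC1-like cells at 13.2% in WT and 28.6% in KO.

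The genotypes were compared within each class that had at least 50 cells in each library, for genes with at least 50 UMIs there. A gene is called past 2-fold when the KO to WT ratio of its level, with 1 CPM added to each, was at least 2-fold in either direction. Log2 ratios are given below without the added CPM and with exact conditional binomial 95% intervals. Of 34 pairs of member and class that could be compared, 5 were past 2-fold, 3 higher in KO and 2 lower. Clusters without a class name were left out of these pairs. Among them, Csf2ra had 18 WT and 35 KO UMIs in the cluster led by Gm26917 (118 and 70 cells). Its log2 ratio there was 1.80 (0.94 to 2.70). Csf2rb had 16 and 36 UMIs in the smaller cluster led by Icos, a log2 ratio of 1.28 (0.39 to 2.23). Both were past 2-fold. With 1 CPM added, they lay 1.49 and 1.41 above the median of all genes of their cluster. The share of all genes past 2-fold is not given for these clusters. In eosinophil-like cells 2 of 5 members were called, where 12% of 2284 genes were. In neutrophil-like cells it was 1 of 5 with a background of 12.3%, in resident macrophage-like cells 1 of 6 with 10.1%, and in cDC1-like cells 1 of 5 with 3.57%. No member was called in inflammatory monocyte-like cells (7 compared, 8.38% of all genes), cDC2-like cells (5 compared, 7.34%) or B cell-like cells (1 compared, 7.24%), and none of the 8 had enough UMIs in T cell-like cells, where 20.5% of all genes were called. With so few members in a class, only the count in eosinophil-like cells was more than 1 gene.

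**Figure D4:**
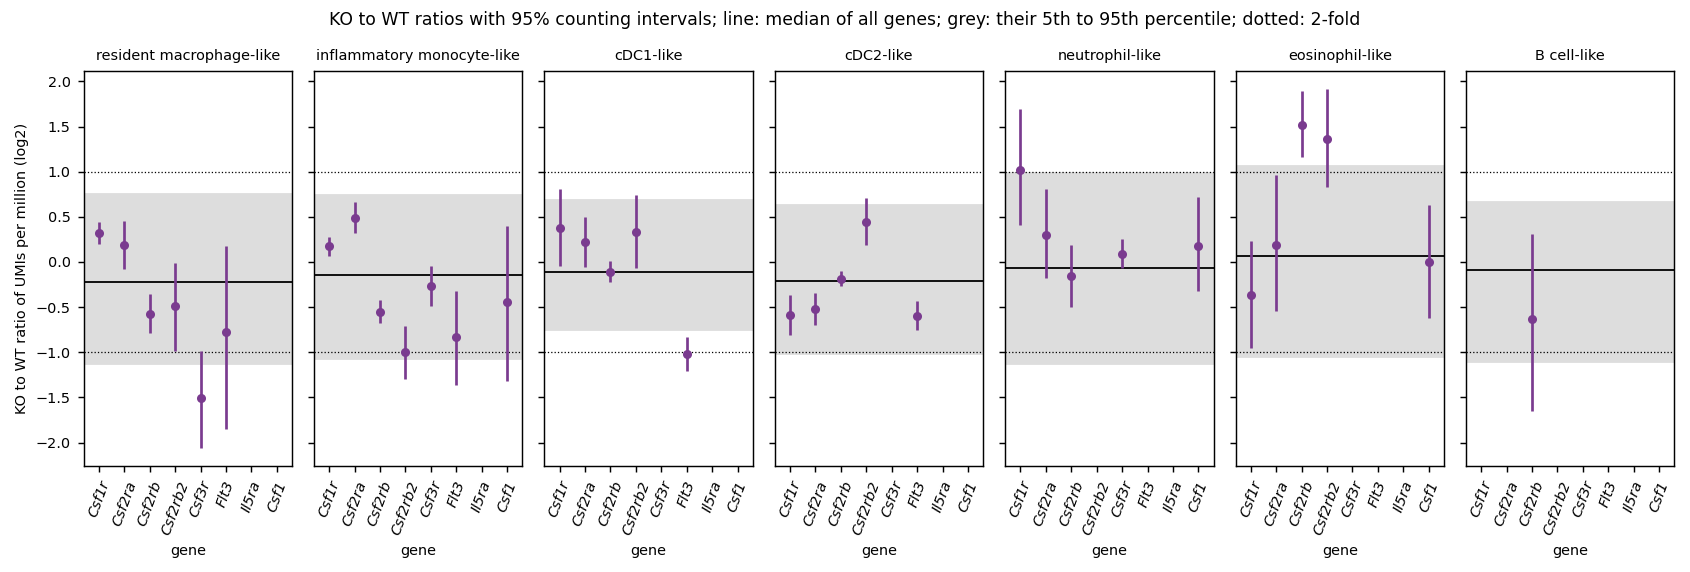
KO to WT ratio (log2) of each member in each class, with exact conditional binomial 95% intervals (points and bars), the median of all genes of the class (line), their 5th to 95th percentile (grey) and the 2-fold limits (dotted). Csf2rb at 1.52 and Csf2rb2 at 1.36 in eosinophil-like cells, Csf1r at 1.02 in neutrophil-like cells, Csf3r at -1.51 in resident macrophage-like cells and Flt3 at -1.02 in cDC1-like cells lie past the limits.

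In eosinophil-like cells both beta chains were past 2-fold higher in KO. Csf2rb had 75 UMIs in 224 WT cells and 378 UMIs in 410 KO cells, a log2 ratio of 1.52 (1.16 to 1.90), and Csf2rb2 had 36 and 162 UMIs, a log2 ratio of 1.36 (0.83 to 1.92). When each cell was classed by its highest marker score instead of by cluster, the value for Csf2rb was 0.74, short of 2-fold, and with each library clustered alone no eosinophil-like class could be compared. The thinned share of cells with a UMI moved the same way, from 9.82% to 25.9% for Csf2rb and from 6.70% to 13.7% for Csf2rb2. The partner chain Csf2ra had 24 and 48 UMIs with a log2 ratio of 0.19 (-0.55 to 0.96), Csf1r had -0.37 (-0.95 to 0.23), and the ligand Csf1 had -0.01 (-0.62 to 0.63). The median over all genes of the class was 0.06.

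This class was shallow, with a median depth of 795 UMIs in WT cells and 971 in KO cells, and its name rests on Siglecf, Ccr3 and Alox15, while the granule genes Epx and Ear1 were at 0 in both libraries. Of the 9 neutrophil markers 4 were raised as well, and Retnlg, 1 of them, was among its leading genes. Of the 8 eosinophil markers 6 were detected in each library, and their summed level was 1167 in WT and 1722 in KO. The summed level of all 9 resident macrophage markers was 1258 in WT against 178 in KO, where Hpgd was at 0, and that of the 8 plasma cell markers was 3659 against 166, with Tnfrsf17 at 0 in both. The 9 neutrophil markers summed to 7855 and 7678, with Ly6g at 0 in both.

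In the 152 WT and 381 KO eosinophil-like cells with no UMI of a resident macrophage marker, a subset chosen after the data were seen, Csf2rb was at 298 and 811, a log2 ratio of 1.45 (0.96 to 1.97). Csf2rb2 was at 180 and 360 there, a log2 ratio of 0.999 (0.36 to 1.70), just short of 2-fold. Csf1r turned from lower to higher in KO in this subset, at 54.9 and 129 with a log2 ratio of 1.23 (0.09 to 2.61). The part of the plasma cell transcripts in these ratios was not tested.

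Csf1r was higher in KO neutrophil-like cells. It had 24 UMIs in 84 WT cells and 203 UMIs in 271 KO cells, a log2 ratio of 1.02 (0.41 to 1.70), and the thinned share of cells was 5.95% in WT and 12.9% in KO. Csf3r, the receptor that marks the class, differed little, with a log2 ratio of 0.09 (-0.07 to 0.26). Csf2ra (0.30), Csf1 (0.18) and Csf2rb (-0.16) also had intervals that included 0. At 2000 UMIs per cell, a UMI of both Csf1r and Csf3r was found in 5 of 55 WT cells (9.09%) and 73 of 244 KO cells (29.9%).

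The summed level of the 9 neutrophil markers in this class was 42478 in WT and 76071 in KO, that of the resident macrophage markers 1158 and 470 (Mertk at 0 in both), and that of the inflammatory monocyte markers 1185 and 1097. In the 45 WT and 216 KO cells with no UMI of a resident macrophage marker, Csf1r was at 83.0 and 161, a log2 ratio of 0.96 (-0.07 to 2.21) from 8 and 106 UMIs. When each cell was classed by its highest marker score instead of by cluster, the log2 ratio of Csf1r was 0.09.

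In resident macrophage-like cells Csf3r was the member past 2-fold. It had 199 UMIs in 417 WT cells and 36 in 139 KO cells, a log2 ratio of -1.51 (-2.06 to -0.99). At the lower thinning depth, the shares of 4.56% in WT and 5.04% in KO do not show this difference. At 2000 UMIs per cell, Csf3r was found more often in WT. Of 249 WT cells, 30 held both Csf1r and Csf3r and 16 held Csf3r without Csf1r. Of 111 KO cells, these counts were 4 and 1. A WT cell held at most 7 and a KO cell at most 3 Csf3r UMIs. The summed inflammatory monocyte markers were 1109 in WT and 412 in KO, the resident macrophage markers 15906 and 21654, although digestive enzyme genes such as Ctrb1 also led the class, and the neutrophil markers 232 and 206, with Ly6g at 0 in both. Their part in the Csf3r difference was not tested.

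The other members compared in this class were within 2-fold. Csf2rb had a log2 ratio of -0.57 (-0.79 to -0.36), Csf2rb2 -0.49 (-0.98 to -0.02) and Flt3 -0.78 (-1.85 to 0.18) from 40 and 12 UMIs. Over the alternatives Csf2rb ranged from -1.22 to -0.01 and Csf2rb2 from -0.92 to 0.30. Csf2ra was at 0.19 (-0.08 to 0.45). Csf1r, at 0.32 (0.20 to 0.44), had no settled direction, since its log2 ratio ranged from -0.27 to 0.54 over the other ways of processing the data. The median over all genes of the class was -0.22.

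Flt3 was lower in all 3 dendritic cell classes of the KO library. In cDC1-like cells it had 375 UMIs in 128 WT cells and 653 in 300 KO cells, a log2 ratio of -1.02 (-1.21 to -0.84), and the thinned share of cells with a UMI was 11.7% and 6.33%. The class held 2 clusters, and the log2 ratio was -1.02 in the larger and -0.80 in the other, which is led by genes of dividing cells such as Top2a and Birc5. In cDC2-like cells the log2 ratio was -0.60 (-0.75 to -0.44), between -1.03 and -0.38 under the alternatives, with thinned shares of 12.9% and 5.32%. Mature dendritic cell-like cells, too few for a call, had -0.70 (-1.26 to -0.12). Of all genes with enough UMIs in the class, 1.51% had a lower ratio than Flt3 in cDC1-like cells. That share was 20.4% in cDC2-like and 21.4% in mature dendritic cell-like cells, so there Flt3 did not stand out.

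Within cDC1-like cells the other receptors compared had intervals that included 0. Csf2rb had a log2 ratio of -0.11 (-0.23 to 0.01), Csf2ra 0.22 (-0.05 to 0.50), Csf2rb2 0.33 (-0.06 to 0.74) and Csf1r 0.37 (-0.05 to 0.81), and the median of all genes was -0.11. Over the alternatives Csf1r had no settled direction there, ranging from -0.50 to 0.54. The 8 cDC1 markers summed to 2164 in WT and 1763 in KO, and the 9 inflammatory monocyte markers to 1614 and 793. The 7 mast cell markers summed to 1562 in WT and 0 in KO, and Mcpt1 and Mcpt2 were leading genes of the larger cluster. Their part in the Flt3 difference was not tested. Without the 5 cells with the most Flt3 UMIs in each library, an alternative added after the data were seen, the value was -0.88, and scaled by the median ratio of all genes it was -0.90, both short of 2-fold.

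In inflammatory monocyte-like cells, taken as 1 class, the chains of 1 receptor differed in direction. The median over all genes of this class was -0.15. Csf2ra was higher in KO, with a log2 ratio of 0.49 (0.32 to 0.66), while Csf2rb was lower, at -0.55 (-0.67 to -0.42). Csf2rb2 lay at the 2-fold limit, at -1.001 (-1.293 to -0.713), and Flt3 was at -0.84 (-1.36 to -0.32). Over the alternatives Csf2ra stayed between 0.41 and 0.63, Csf2rb2 between -1.16 and -0.19, and Csf2rb ranged from -0.60 to 0.06. Csf1r was at 0.17 (0.07 to 0.28), Csf3r at -0.26 (-0.49 to -0.04, with -0.47 to 0.30 over the alternatives) and Csf1 at -0.45 (-1.32 to 0.40).

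This class joined 2 clusters in unequal parts, 1 with 398 WT and 59 KO cells and 1 with 33 WT and 267 KO cells. Within the first cluster Csf2rb was at -0.63 (-0.89 to -0.37) and Csf2rb2 at -0.31. Within the second they were at -0.12 (-0.46 to 0.25) and -0.53. The Csf2rb2 value for the class was thus larger than in either of its clusters. Csf1r was at -0.09 in the first and 0.33 in the second cluster, and Csf3r at -0.81 and 0.03. Csf2ra was above 0 in both, at 0.74 (0.44 to 1.03) and 0.28 (-0.17 to 0.77). The opposite direction of Csf2ra and Csf2rb was thus beyond counting error only in the first cluster. Flt3, lower in KO over the whole class, was at 0.36 (-0.47 to 1.11) in the first cluster and at -1.56 (-2.66 to -0.31) in the second, there from 9 and 33 UMIs, under the 50 needed for a call.

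In cDC2-like cells the 5 members that could be compared were within 2-fold. Csf1r was at -0.59 (-0.81 to -0.36), Csf2ra at -0.52 (-0.70 to -0.35) and Csf2rb at -0.18 (-0.27 to -0.10), where the median of all genes was -0.21. Csf2rb2 was the only 1 of these 5 above 0, at 0.44 (0.19 to 0.71). Csf3r (20 and 16 UMIs) and Csf1 (6 and 20 UMIs) had too few UMIs to be called. The Csf1r value was 0.31 when clusters with tied markers, the Retnla cluster among them, were given a name, and Csf2ra was at 0.08 with the top doublet scores removed. In B cell-like cells only Csf2rb could be compared, at -0.63 (-1.66 to 0.30) from 40 and 13 UMIs. In stromal-like cells, with 80 WT and 21 KO cells, Csf1 was at 0.57 (0.09 to 1.06).

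**Figure D5:**
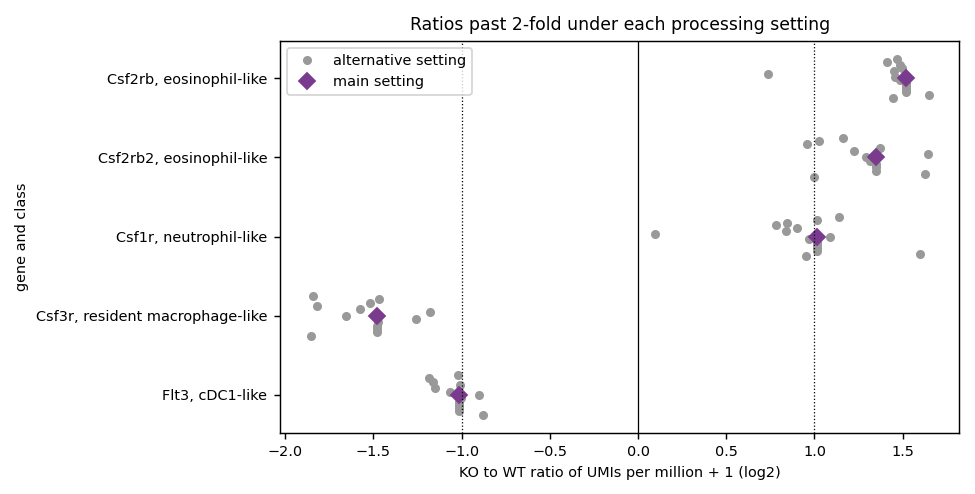
KO to WT log2 ratio of the 5 members past 2-fold, computed with 1 CPM added (horizontal axis), as reported (diamonds) and under each alternative way of processing the data (grey points), with dotted lines at 2-fold. Csf3r in resident macrophage-like cells stayed between -1.86 and -1.18 and Flt3 in cDC1-like cells between -1.19 and -0.88, while Csf1r in neutrophil-like cells ranged from 0.09 to 1.60.

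Of 23 other genes of these pathways, 105 pairs of gene and class could be compared, and 18 were past 2-fold, 8 higher and 10 lower in KO. By class it was 1 of 15 in resident macrophage-like cells (10.1% of all genes), 4 of 15 in inflammatory monocyte-like cells (8.38%), 1 of 17 in cDC1-like cells (3.57%), 5 of 17 in cDC2-like cells (7.34%), 2 of 11 in neutrophil-like cells (12.3%), 1 of 10 in eosinophil-like cells (12%), 0 of 8 in B cell-like cells (7.24%) and 4 of 12 in T cell-like cells (20.5%). Among feedback and target genes, Cish, an inhibitor induced by STAT5, was past 2-fold lower in KO in 3 of the 5 myeloid classes where it could be compared. It was at 107 in WT and 36.2 in KO inflammatory monocyte-like cells (log2 ratio -1.57, -1.91 to -1.24), at 47.8 and 20.1 in resident macrophage-like cells (-1.25) and at 66.3 and 31.3 in cDC2-like cells (-1.08). Within the 2 clusters of the monocyte-like class it was at -1.07 (-1.74 to -0.47) and -0.59 (-1.51 to 0.47). In cDC1-like cells it differed little, at 39.9 and 38.7 (-0.05). In eosinophil-like cells, where the beta chains were higher, Cish was at 215 and 198 (-0.12), and Socs2, another inhibitor of cytokine signalling, was the only pathway gene of 10 past 2-fold, at 45.3 and 94.6 (1.06, 0.12 to 2.12).

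The cytokine Osm, a STAT5 target in myeloid cells, was lower in KO dendritic cells, at 22.0 and 7.58 in cDC1-like cells (-1.54) and at 27.4 and 6.75 in cDC2-like cells (-2.02). Socs1 was lower in inflammatory monocyte-like (-1.27) and neutrophil-like cells (-1.09), but at -0.46 and 0.15 within the 2 clusters of the monocyte-like class. Of the signalling genes, the transcription factor Stat5a was higher in KO cDC2-like cells (1.02), where the survival gene Bcl2l1 was also higher (1.24) and the phosphatase Ptpn6 lower (-1.01). Inpp5d, a lipid phosphatase, was lower in inflammatory monocyte-like cells (-1.01), with -0.36 and -0.84 within the 2 clusters. In T cell-like cells Stat5a (1.32), Stat5b (1.14) and Socs3 (2.29) were higher and Ptpn6 (-1.85) lower, in a class where 20.5% of all genes were past 2-fold.

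Among the ligands, Csf3, which binds Csf3r, was at 43.2 in WT and 118 in KO inflammatory monocyte-like cells (1.44, 1.14 to 1.76), but this did not hold within the 2 clusters of that class. Csf3 was at -1.07 (-2.33 to -0.04) in the cluster with most of the WT cells and at 0.33 (-0.27 to 1.00) in the cluster with most of the KO cells, of which it is a leading gene. In neutrophil-like cells Csf3 was higher in KO, at 35.6 and 80.2 (1.17, 0.12 to 2.43). Csf2, the ligand of Csf2ra, was at its highest level in a cluster led by Icos, Rora and Tnfsf11, which held 64 of 78 WT UMIs in 73 cells and 10 of 39 KO UMIs in 46 cells (183 and 30.8 CPM). In KO the Retnla cluster held 17 Csf2 UMIs, at 4.85 CPM. The cluster led by Icos held 13 of 13 WT and 2 of 3 KO UMIs of Il5, the ligand of Il5ra. Flt3l, the ligand of Flt3, had 214 UMIs in WT and 129 in KO over all cells, and Il3 had 0 in both, which allows up to 0.158 CPM in WT and 0.134 in KO.

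Across the 30 sums of a class in a library with at least 20 cells, the genes with the most similar pattern were found by Pearson's r of log2(CPM + 10) among 7485 genes. They were Cd300c2 (0.94), Lyz2 (0.93) and Bach1 (0.91) for Csf1r, Pirb (0.93), Fgr (0.91) and Il1b (0.91) for Csf2ra, and Spi1 (0.93), Skap2 (0.91) and Irf5 (0.91) for Csf2rb. For Csf2rb2 they were Eepd1 (0.88), Smim3 (0.87) and Basp1 (0.87), for Csf3r Hcar2 (0.92), Saa3 (0.89) and Bst1 (0.88), for Flt3 Pkib (0.87), Cmtr1 (0.86) and Dpp4 (0.85), and for Csf1 Mdk (0.89), Igf1r (0.87) and Btbd19 (0.85). Dpp4 is also a marker used to name cDC2-like cells. Among the members, Csf2ra and Csf2rb were most alike (0.88), then Csf2rb and Csf2rb2 (0.87) and Csf1r and Csf2ra (0.85), whereas Csf1r and Flt3 had 0.17 and Flt3 and Csf1 -0.32. The sums share 2 libraries and differ in depth, so these values describe the pattern only.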

How the data were processed

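Single-cell UMI counts of 2 libraries, WT and KO, were used. The deposited files give, for each barcode and gene, a UMI count without normalisation, which the authors made with Cell Ranger 3.0.2 per the file headers. The submitters' processing notes name Seurat and mm10. There were 3185 WT barcodes with 22191774 UMIs and 3020 KO barcodes with 23384895 UMIs. The lowest deposited totals were 501 and 500 UMIs per barcode, and 1 barcode occurred in both deposited libraries. Both libraries hold fewer barcodes than the cells the study states, far fewer for WT, so shares by class are those of these files only.

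Following the study's filter, cells with 200 to 6000 genes and at most 15% mitochondrial UMIs were kept. Counts were normalised to 10000 per cell, and 2000 variable genes without the members and pathway genes, 30 principal components, 15 neighbours and Leiden clustering at resolution 1 were used (scanpy 1.11.5, leidenalg 0.10.2, scikit-learn 1.9.0, scipy 1.17.1, Python 3.11.15). Clusters were named for the marker list with the highest share of genes raised at least 2-fold and detected in 10% of its cells, with at least 3 raised. A cluster whose top 10 genes held as many markers of another class stayed unnamed, a rule set after the first clustering was seen. Scrublet called 1 WT and 9 KO cells and is taken not to have worked, so doublets were not removed, and removal of the top 3% of scores was an alternative. Levels are sums of UMIs over the cells of a class and library per 1000000 UMIs (CPM). Intervals are exact at 95% and cover counting error only. A count of 0 allows up to 3 UMIs. The intervals and calls were tried on simulated Poisson counts with planted 4-fold changes, for resident macrophage-like and neutrophil-like cells. Such counts hold no spread between cells, mice or libraries, so this checks the calculation only.

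The named genes are the 8 members, 23 pathway genes and, for each member with at least 200 UMIs, the 3 genes with the most similar pattern. The members and lists were chosen with earlier results of these data known. Alternatives changed the clustering, cell filter, doublet removal, number of variable genes, class assignment, scaling, UMI minimum and thinning. Sequences came from the RefSeq promoter table.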

Additional observations from a re-analysis of the deposited data

Results flagged for a closer look

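For 4 members the KO to WT difference pointed in opposite directions in 2 classes, with counting intervals over the whole class that did not include 0. None of these contrasts between classes was tested across replicates, because each genotype had 1 library. For Csf2rb the log2 ratio was 1.52 in eosinophil-like and -0.57 in resident macrophage-like cells, a difference of 2.09. For Csf2rb2 it was 1.36 in the eosinophil-like and -1.001 in the monocyte-like class, a difference of 2.36, but within the 2 clusters of the monocyte-like class it was -0.31 (-0.82 to 0.17) and -0.53 (-1.32 to 0.35). For Csf1r it was 1.02 in neutrophil-like and -0.59 in cDC2-like cells, a difference of 1.61. For Csf2ra it was 0.49 in inflammatory monocyte-like and -0.52 in cDC2-like cells, a difference of 1.01. These differences rest on values that depend on how cells were classed: over the alternatives Csf1r in cDC2-like cells ranged from -0.63 to 0.31, Csf2ra there from -0.52 to 0.08, Csf1r in neutrophil-like cells from 0.09 to 1.60, Csf2rb in resident macrophage-like cells from -1.22 to -0.01 and Csf2rb2 in inflammatory monocyte-like cells from -1.16 to -0.19. In eosinophil-like cells Csf2rb ranged from 0.74 to 1.65 and Csf2rb2 from 0.96 to 1.64.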

How the results depend on the processing

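No paired analysis was possible because each genotype had 1 library, so no replicate could be left out either. Over the alternatives 4 to 7 pairs of member and class were past 2-fold in place of 5, except with a minimum of 20 UMIs, which gave 11. The number of members with the same highest class in both libraries was 5 and ranged from 4 to 6, except with each library clustered alone, which gave 3. The 5 include Il5ra, whose counts allow no order of classes. They also include Csf2rb2 and Csf1, whose highest WT class was not separated from the next. By share of positive cells the number was 3 with cells thinned to 500 UMIs and 4 with 2000. Clustering each library alone left no eosinophil-like class that could be compared. Csf1r and Csf3r had the same highest class in 8 of 8 settings in both libraries. Csf3r in resident macrophage-like cells was past 2-fold in 13 of 13 alternatives and Flt3 in cDC1-like cells in 11 of 13. In eosinophil-like cells Csf2rb was past 2-fold in 13 of 14 alternatives (0.74 when each cell was classed by its highest marker score) and Csf2rb2 in 11 of 13 (lowest 0.96, with the stricter cell filter). Csf1r in neutrophil-like cells was past 2-fold in 8 of 15. The cause of these changes was not tested. Of the other values, 438 moved by less than their counting interval and 121 by more. All these tallies include alternatives that could not move a ratio. A changed UMI minimum alters only which pairs are compared, and joining macrophages with monocytes leaves the other classes as they were. Naming tied clusters left Csf1r in resident macrophage-like and Flt3 in WT cDC1-like cells at the same level. The tallies are thus not counts of independent checks. Eosinophil-like cells, with under 1000 UMIs per cell at the median, limit what can be seen there, and Il5ra could not be compared in any class.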

Other observations

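Related receptors outside the members were counted in the same classes. Kit, the receptor of stem cell factor, was at 91.5 CPM in WT and 56.6 in KO cDC1-like cells and at 96.9 and 65.4 in cDC2-like cells, and its highest level was in the cluster led by Icos, Rora and Tnfsf11, at 103 in WT and 182 in KO. Il3ra, the specific chain of the IL-3 receptor, was at 39.0 in WT and 20.1 in KO resident macrophage-like cells (log2 ratio -0.95, -1.72 to -0.24, within 2-fold) and at 30.9 and 26.0 in inflammatory monocyte-like cells. Its highest WT level, 46.5 from 7 UMIs, was in 26 NK cell-like cells. In B cell-like cells of the WT library Csf3r was at 53.5 and Flt3 at 48.4, against 2.54 and 15.2 in KO, and the summed neutrophil markers of that class were 980 in WT and 20.3 in KO.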
